A study of Mus musculus with 4 samples.

Results

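A set of 9 C-type lectin receptor genes of myeloid cells was followed across the study: Clec4e, Clec4d, Clec4n, Clec7a, Clec5a, Clec10a, Clec12a, Clec9a and Clec2i. The list was drawn up with earlier results of these data known. Its probe sets are those whose single symbol in the array annotation is one of these 9 names. All 9 receptors were found among 19938 measured genes. Each had 1 probe set, so no choice between probe sets had to be made. C-type lectin receptors are surface proteins that bind sugars, lipids or proteins of microbes and of damaged cells. The activating ones signal either through a tyrosine motif of their own or through the adaptors Fcer1g and Tyrobp to the kinase Syk, and from there to the Card9, Bcl10 and Malt1 complex and NF-kB. Others carry an inhibitory motif that recruits phosphatases. Macrophages, dendritic cells and neutrophils carry different sets of them, and several genes of the family lie side by side in tandem clusters.

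The study measured mouse bone marrow cells of the B6 background on microarrays after culture with GM-CSF at 20 ng/ml, which drives marrow towards macrophages and dendritic-type cells. Wild-type marrow, labelled Bach1 (+/+), and marrow labelled Bach1 (-/-) was grown for 6 days and then received 40 µM heme or the vehicle, which was 0.15 M NaCl with 10% NH4OH. RNA was taken 24 hours later from the adherent cells alone. The 4 groups were wild-type vehicle, wild-type heme, labelled knockout vehicle and labelled knockout heme, with 1 array in each. No difference therefore has a replicate check or a replicate error, and the number of arrays limits the precision. No test was run. A fit of heme and genotype without their interaction, which would take the difference between the heme responses as error, was not used. The labels do not say how the Bach1 allele was made, whether it is deleted in all cells, the age of the mice, or how many mice a culture came from. Heme binds Bach1, a transcriptional repressor, and releases it from DNA, so the arrays compare heme and genotype together.

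Signals were linear values. A gene counted as higher or lower in a comparison when 2 arrays differed by 2-fold or more (1 on the log2 scale) and the brighter reached 31.0, the median of all values, called at level below. The robust SD of log2 differences over all genes at level was between 0.25 and 0.28, which mixes noise with real differences. The Bach1 probe set read 212, 264, 211 and 204 on the arrays of wild-type vehicle and heme and of labelled knockout vehicle and heme, the order kept for all values below. These readings do not tell the genotypes apart, and where the probes lie relative to the deletion is not stated in the labels, so this probe set does not check the genotype. Hmox1 and Spic are genes that Bach1 is known to repress. Hmox1 read 1827, 9881, 9047 and 10330 and Spic 17.0, 429, 298 and 679. In vehicle both were higher in the labelled knockout, the direction known for loss of Bach1. Of the 20 measured macrophage markers, 19 were at level, with Adgre1 at 764, 753, 837 and 937 and Csf1r at 1118, 1116, 813 and 1011. The dendritic cell genes Flt3 and Zbtb46 stayed below level on all 4 arrays, while Itgax read 1340, 741, 972 and 547. Neutrophil markers were also at level, 20 of 21, with Ly6g at 108, 179, 59.2 and 111. Of the markers of B, T and NK cells, 2 of 21 reached level, and of mast cells and basophils 1 of 15. Of plasmacytoid dendritic cell markers 6 of 8 did, though Siglech read 16.7, 18.0, 19.3 and 16.0, below level. Of fibroblast and endothelial markers 7 of 15 did, with summed signals of 364 to 489. Of all 19938 genes, 11155 were at level on any array. Reaching level alone thus does not show that a cell type was present.

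To let the sequence of the regulatory regions be read beside the values, the 250 bases before the RefSeq start site (build GRCm38.p6) are shown for the 3 receptors that heme-treated wild-type cells showed at over 2-fold the vehicle signal, and for Clec5a. Clec5a is the one receptor whose window held TGCTGAG, a part, not the whole, of the element that Bach1 binds with a small Maf protein. Capitals mark matches to this part and to the cores of 2 myeloid factors, all searched on both strands. The core of PU.1 was searched as GAGGAA. The pattern of C/EBP factors was searched as TTNNGNAA. For Clec2i, which has 2 listed start sites, the window before the first listed is shown. The marked matches do not overlap in these 4 windows.
Clec4e, minus strand, chr6:123289872-123290121: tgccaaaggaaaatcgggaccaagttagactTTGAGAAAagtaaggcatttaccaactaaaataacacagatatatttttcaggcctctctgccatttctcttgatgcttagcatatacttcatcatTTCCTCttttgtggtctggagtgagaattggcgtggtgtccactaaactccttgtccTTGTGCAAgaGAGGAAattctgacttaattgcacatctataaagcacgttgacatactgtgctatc
Clec4d, plus strand, chr6:123261857-123262106: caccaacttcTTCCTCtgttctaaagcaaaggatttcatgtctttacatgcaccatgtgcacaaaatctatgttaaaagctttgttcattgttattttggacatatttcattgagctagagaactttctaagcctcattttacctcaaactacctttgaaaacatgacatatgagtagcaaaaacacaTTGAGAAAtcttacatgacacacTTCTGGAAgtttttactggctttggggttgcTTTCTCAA
Clec2i, plus strand, chr6:128887337-128887586: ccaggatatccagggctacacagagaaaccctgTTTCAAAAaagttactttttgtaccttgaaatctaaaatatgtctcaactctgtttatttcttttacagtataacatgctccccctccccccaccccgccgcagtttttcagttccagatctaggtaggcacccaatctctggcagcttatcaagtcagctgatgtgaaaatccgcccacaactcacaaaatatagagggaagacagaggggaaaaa
Clec5a, minus strand, chr6:40585806-40586055: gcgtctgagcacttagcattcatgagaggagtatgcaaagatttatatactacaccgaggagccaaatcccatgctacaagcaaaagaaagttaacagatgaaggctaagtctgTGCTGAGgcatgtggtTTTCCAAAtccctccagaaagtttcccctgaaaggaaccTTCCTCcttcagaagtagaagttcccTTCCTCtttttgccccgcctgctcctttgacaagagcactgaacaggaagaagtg

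RefSeq windows were matched for 7 of the 9 receptors, all but Clec4n and Clec10a. Clec7a and Clec2i have 2 start sites each, with overlapping windows. A receptor was counted if any of its windows held a match, while the shares are of single windows. GAGGAA stood in 5 of these 7 (Clec4e, Clec4d, Clec7a, Clec5a and Clec12a), against 23.3% of all 32851 windows of this length. TTNNGNAA stood in 5 (Clec4e, Clec4d, Clec5a, Clec12a and Clec2i), against 36.8%. TGCTGAG stood in 1, against 6.21%. In Clec4e, a C/EBP match, TTGTGCAA, ended 59 bases before the start and a GAGGAA began 56 bases before it. The AP-1 core TGAGTCA (4.46% of windows), the antioxidant element core TGACNNNGC (10.2%) and the NF-kB pattern GGGNNNNNCC (45.8%) were found in 0 of the 7, which says only that these letters are not in these 250 bases. Such matches describe the sequence and are not binding sites.

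The heme comparison in wild-type cells asks which receptors respond to heme with Bach1 present. Clec4e, Clec4d and Clec2i were at least 2-fold higher. They make 3 of 9, where 1.17% of 10772 genes at level were 2-fold higher. The receptors were chosen with earlier results of these data known, so their counts are not independent of that choice. None of the 9 was 2-fold lower (0 of 9), where 0.891% of genes were. In the labelled knockout 2 of 9, Clec4e and Clec2i, were 2-fold higher (1.20% of 10843 genes) and 0 of 9 lower (0.452%). The median log2 difference over the 9 was 0.22 in wild type and 0.36 in labelled knockout cells, against -0.01 and 0.02 over all genes at level. In bulk RNA, fewer cells of a type and less RNA per cell cannot be told apart.

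Clec4e encodes Mincle, which pairs with Fcer1g and senses mycobacterial cord factor and a protein set free by dying cells. In wild type it read 184 with vehicle and 661 with heme, and in the labelled knockout 156 and 395. Both heme arrays were above both vehicle arrays. The difference was 3.59-fold in wild type, the 21st largest increase among genes at level, and 2.54-fold in the labelled knockout, the 46th. The genotypes lay 1.18-fold apart in vehicle and 1.67-fold apart with heme, lower each time in the labelled knockout.

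Clec4d encodes MCL, the partner with which Mincle forms a complex and shares its ligand. It read 803, 1835, 1379 and 2143 on the arrays in the same order. Both heme arrays again exceeded both vehicle arrays, but the labelled knockout vehicle array already stood 1.72-fold above wild-type vehicle. The heme difference was 2.28-fold in wild type and 1.55-fold in the labelled knockout, below the 2-fold rule there. In vehicle Clec4d was thus higher in the labelled knockout, by log2 0.78. The Clec4e difference there, log2 -0.24, lay within the robust SD of that comparison, 0.27.

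Clec4n encodes dectin-2, which binds fungal mannans and signals through Fcer1g. It read 2850, 3733, 2813 and 3599, which put both heme arrays above both vehicle arrays by a small margin, 1.31-fold in wild type and 1.28-fold in the labelled knockout. The genotypes differed by 1.01-fold in vehicle and 1.04-fold with heme. In all, 4 of the 9 receptors, these 3 and Clec2i, had both heme arrays above both vehicle arrays, a count made after the values were seen. Of all 11155 genes at level on any array, 21.4% did.

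**Figure D1:**
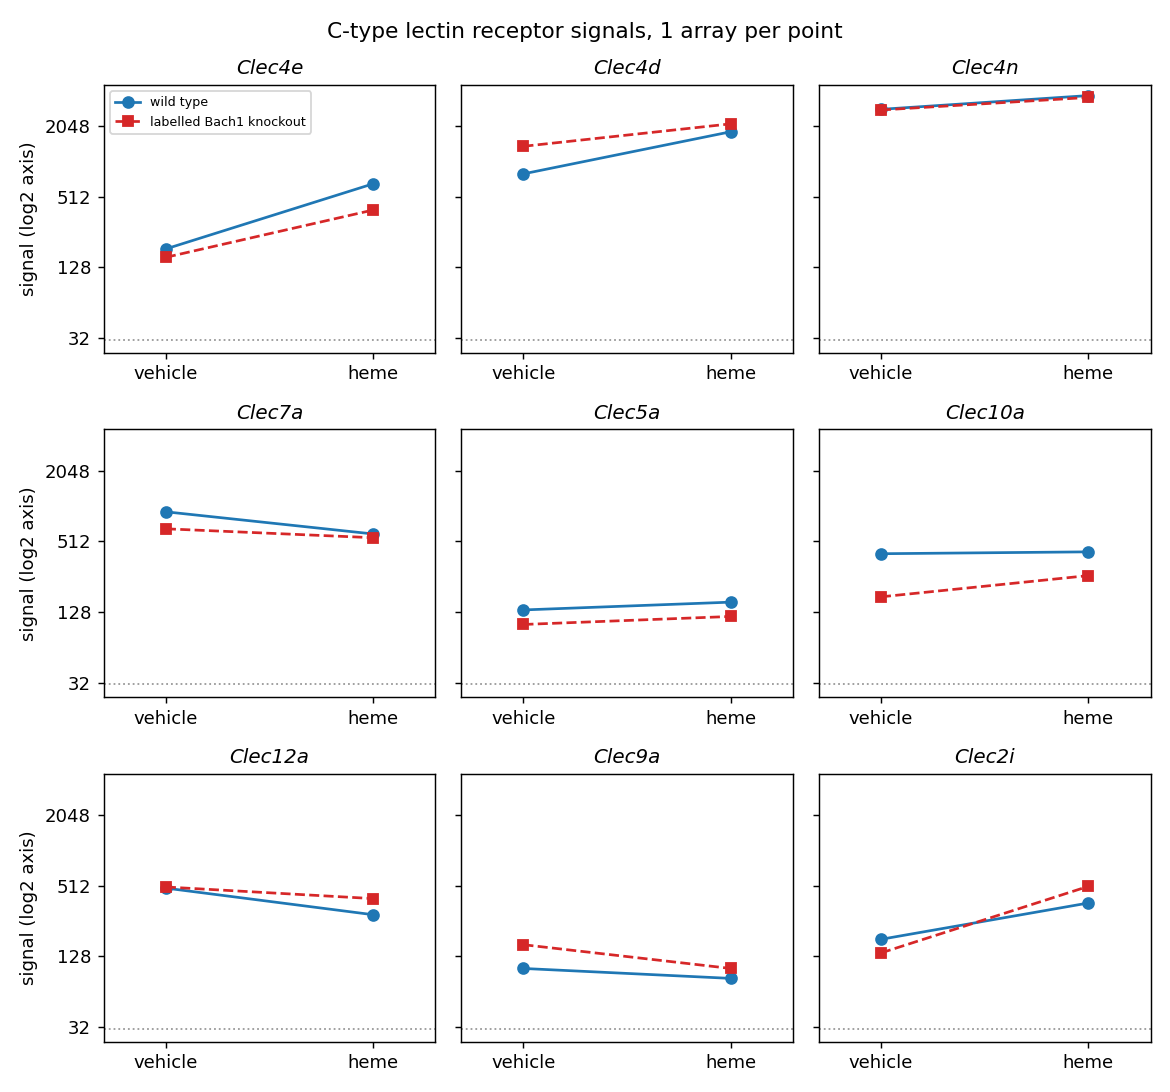
Signal (log2 axis) of each of the 9 receptors in vehicle and heme, with wild type as blue circles and labelled knockout as red squares, 1 array per point and no error bars. The dotted line is the level filter at 31.0. Clec4e, Clec4d and Clec2i climb from vehicle to heme in both genotypes, Clec10a lies lower in the labelled knockout, and the 2 lines of Clec2i cross.

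Clec2i encodes Clr-g, a lectin-like protein that is itself a ligand of receptors of the Klrb1 family on NK and other lymphoid cells. It read 179, 365, 137 and 506. The heme arrays were the 2 brightest and the labelled knockout heme array the brightest of all. The difference was 2.04-fold in wild type and 3.70-fold in the labelled knockout, where it was the 8th largest increase among 10843 genes. In wild type it lay close to the rule: with 32 added to each signal the difference was 1.88-fold, below 2-fold. Of the genes of that family, Klrb1a, Klrb1c and Klrb1f stayed below level on all arrays. Klrb1b reached it on 2, at 37.2 in wild-type vehicle and 32.2 in wild-type heme. The arrays do not show which of them bind Clr-g.

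Clec7a and Clec12a had the opposite order. Clec7a, or dectin-1, is a receptor for fungal beta-glucan with an activating motif of its own. It read 913, 591, 654 and 549, so both heme arrays were below both vehicle arrays, by 1.55-fold in wild type and 1.19-fold in the labelled knockout. Clec12a, or MICL, is an inhibitory receptor of granulocytes and monocytes. It read 489, 290, 500 and 398, lower with heme by 1.69-fold in wild type and 1.26-fold in the labelled knockout. These were 2 of 9 receptors with both heme arrays below both vehicle arrays, and 19.5% of all genes at level did the same, so the ordering alone does not set them apart. Neither reached 2-fold in either genotype.

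Clec5a, or MDL-1, pairs with Tyrobp and read 133, 155, 100 and 117. The heme difference was 1.16-fold in each genotype and the labelled knockout was 1.33-fold lower in each treatment. Clec9a, or DNGR-1, marks the cross-presenting type 1 dendritic cells and binds actin exposed by dead cells. It read 101, 83.1, 161 and 101, and was 1.21-fold lower with heme in wild type and 1.59-fold lower in the labelled knockout. Of the listed type 1 dendritic cell markers, 7 of 14 were at level, and the defining gene Xcr1 read 12.7, 12.1, 12.6 and 11.3, below level throughout.

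**Figure D2:**
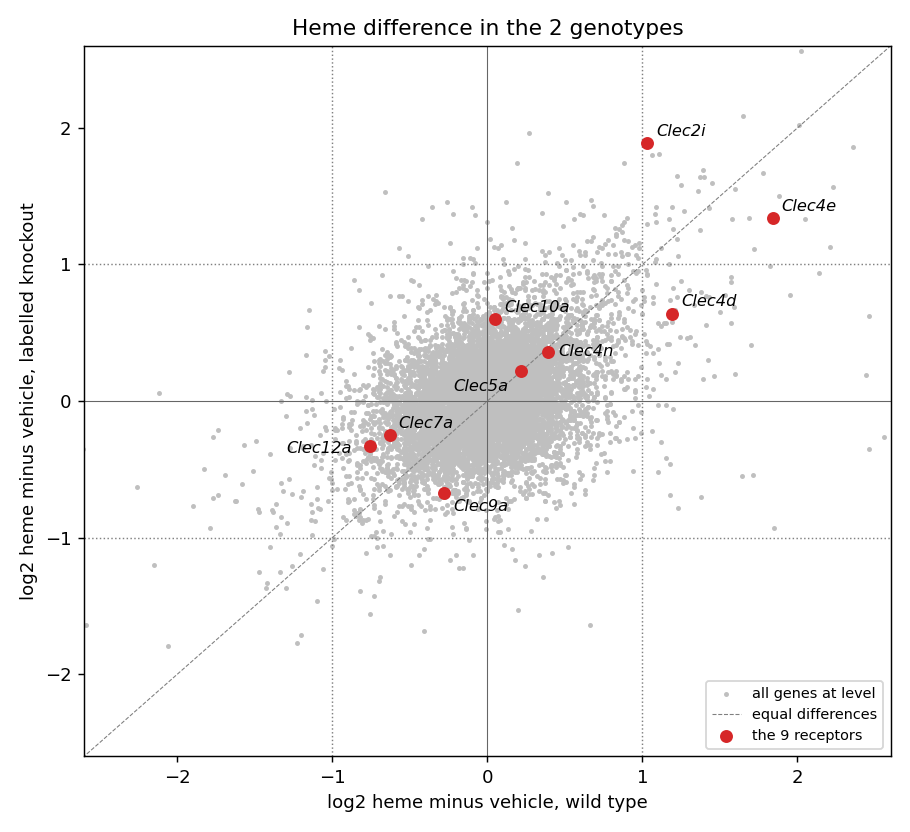
Log2 heme minus vehicle, wild type on the horizontal and labelled knockout on the vertical axis, for the 11155 genes at level on any array (grey, 8 of them outside the axes) and the 9 receptors (red). Dotted lines mark 2-fold and the dashed line equal differences. Clec4e and Clec2i lie beyond 2-fold on both axes, Clec4d on the horizontal axis alone.

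The comparison of genotypes in vehicle shows the receptors when no heme is added. It gave 1 of 9 receptors 2-fold lower in the labelled knockout, Clec10a, where 1.14% of 10859 genes were. It gave 0 of 9 higher, where 0.525% were. With heme in both cultures, 0 of 9 were 2-fold lower (0.973% of 10790 genes) and 0 of 9 higher (0.519%). The median log2 difference over the 9 was -0.24 in vehicle and -0.05 with heme, against -0.02 and 0.01 over all genes at level. Clec5a and Clec10a were the 2 of 9 with both labelled knockout arrays below both wild-type arrays (18.0% of all genes). Clec9a was the 1 of 9 with both above (17.1%), although its wild-type vehicle and labelled knockout heme arrays both read 101 when rounded. It was 1.60-fold higher in vehicle and 1.21-fold higher with heme. Clec4d was 1.17-fold higher with heme, far less than in vehicle. Clec7a was lower by 1.40-fold in vehicle and by 1.07-fold with heme. Clec12a lay 1.02-fold apart in vehicle and was 1.37-fold higher with heme. Clec2i was 1.31-fold lower in vehicle and 1.39-fold higher with heme.

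Clec10a encodes MGL1, a receptor for terminal galactose and N-acetylgalactosamine on macrophages and dendritic cells. In wild type it read 401 with vehicle and 416 with heme, and in the labelled knockout 172 and 261. The labelled knockout was 2.33-fold lower in vehicle, the 77th largest decrease among genes at level, and 1.60-fold lower with heme. Heme itself made a 1.04-fold difference in wild type and a 1.52-fold one in the labelled knockout. In the RefSeq gene order Clec10a follows Asgr1, Asgr2 and Mgl2, lectin genes of the same subfamily. Mgl2 read 744, 609, 231 and 233 and Asgr2 305, 330, 78.7 and 91.7, each over 2-fold lower in the labelled knockout in both treatments (log2 -1.69 and -1.39 for Mgl2, -1.96 and -1.85 for Asgr2). Asgr1 stayed below level. On the other side, Slc16a11 stayed below level and Slc16a13 read 28.3, 55.4, 56.3 and 63.7, which is not lower in the labelled knockout. Clec10a and Mgl2 are close copies, and how far their probes share sequence is not stated in the labels, so the 2 readings may not be independent.

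**Figure D3:**
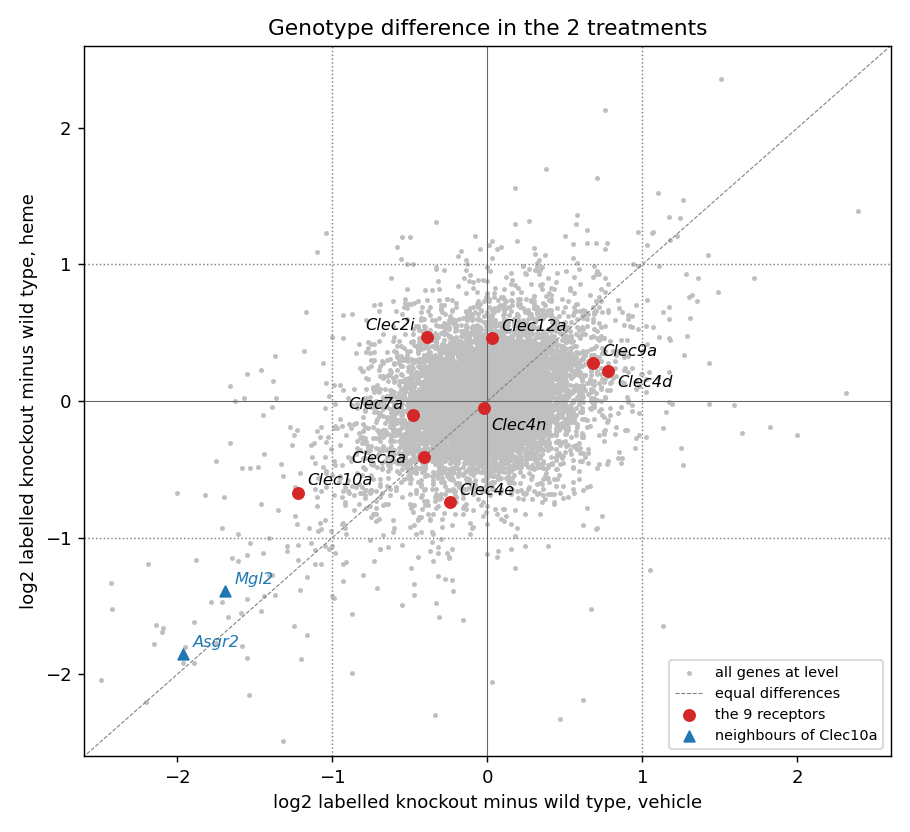
Log2 labelled knockout minus wild type in vehicle (horizontal) and with heme (vertical) for genes at level (grey, 6 of 11155 outside the axes), the 9 receptors (red) and 2 neighbours of Clec10a (blue triangles). Clec10a is the one receptor beyond 2-fold, on the horizontal axis, while Mgl2 and Asgr2 lie beyond it on both.

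Conventional dendritic cell markers, a list that includes Mgl2, moved with the same comparison. Of 20 at level, 12 were 2-fold lower in vehicle and 11 with heme, where 1.14% and 0.973% of all genes at level were. In both treatments 0 were higher, where 0.525% and 0.519% of all genes were. The list medians were -1.41 and -1.14 over those at level, and -0.86 and -0.77 over all 25 measured. Their summed signal was 19480, 15877, 8626 and 7898. The chemokine Ccl17 read 1520, 1019, 107 and 76.0. Ccl22 was next after it in both treatments. Whether a shift of cell types has a part in the Clec10a difference was not tested. Macrophage markers had a summed signal between 29492 and 34782. In vehicle, 4 of 19 at level were 2-fold lower in the labelled knockout, against 1.14% of all genes, C1qa, C1qb and C1qc among them.

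The receptors lie in few places of the genome. In the RefSeq order of protein-coding genes on chromosome 6, Clec4n, Clec4d and Clec4e stand next to each other, after Clec4b1, Clec4a2 and Clec4b2. Along these 3 the wild-type heme difference was 0.39, 1.19 and 1.84 (log2) and in the labelled knockout 0.36, 0.64 and 1.34. Just before them, Clec4b1 read 238, 153, 242 and 205, lower with heme, Clec4a2 read between 668 and 743 on all arrays, and Clec4b2 stayed below level. Clec12a, Clec12b, Clec1b, Clec9a, Clec1a and Clec7a follow each other elsewhere on chromosome 6. Those at level, Clec12a, Clec9a, Clec1a and Clec7a, were all lower with heme in both genotypes, by log2 differences from -0.25 to -0.76, and so was the next gene, Olr1 (-0.42 and -0.25). Each of these stayed within 2-fold. Gabarapl1, which follows Tmem52b beyond Olr1, was higher (0.74 and 0.88).

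**Figure D4:**
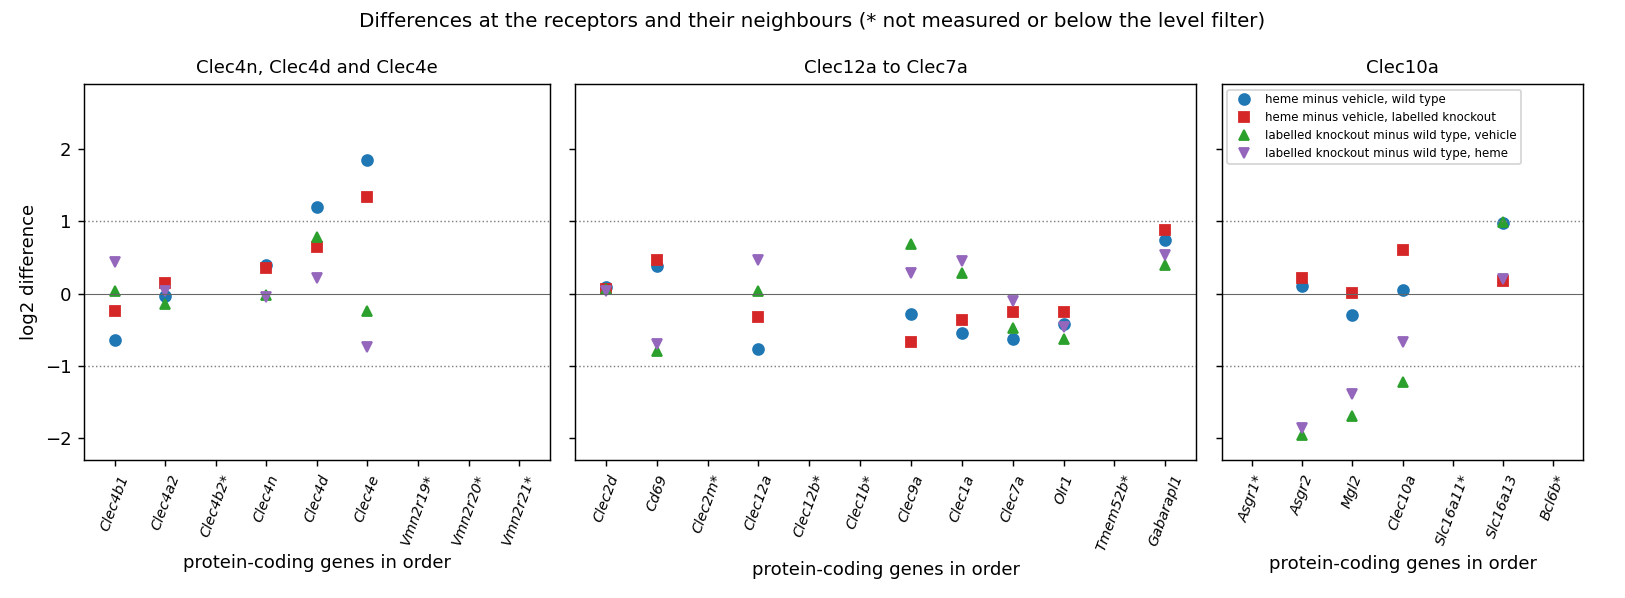
Log2 differences in the 4 comparisons (symbols) for protein-coding genes in RefSeq order around Clec4n, Clec4d and Clec4e, around Clec12a to Clec7a, and around Clec10a, where a star marks genes not measured or below level. Clec4d and Clec4e are higher with heme, the genes at level from Clec12a to Olr1 are lower, and Asgr2, Mgl2 and Clec10a are lower in the labelled knockout. Clec1a lies near the level filter.

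Whether the response to heme differs with genotype was read as the labelled knockout's heme difference minus that of wild type. No receptor reached 2-fold (0 of 9 higher, where 1.17% of 11155 genes were, and 0 of 9 lower, where 0.879% were). The log2 values nearest to it were 0.86 for Clec2i, 0.55 for Clec10a, -0.56 for Clec4d and -0.50 for Clec4e. Clec12a stood at 0.42, Clec7a at 0.38 and Clec9a at -0.40. Clec4n, at -0.03, and Clec5a, with 1.16-fold in each genotype, lay closest to equal responses. With 1 array a group, none of these differences could be tested, and the robust SD over all genes was 0.32.

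Other lectin and lectin-like receptors were measured for 41 of 42 listed genes, and 21 were at level on any array. None of those at level was 2-fold higher with heme in wild type (0 of 20) and 1 was lower, Klra17 (37.8, 11.3, 13.9 and 8.64). In the labelled knockout 0 of 19 passed in either direction. In each direction of the comparisons of 2 arrays, between 0.452% and 1.20% of all genes at level passed. Counts of 0 therefore do not set this list apart. The mannose receptor Mrc1 read 975, 539, 1120 and 874, a log2 heme difference of -0.86 in wild type and -0.36 in labelled knockout cells. Clec4a1 read 220, 323, 130 and 256. In vehicle, 3 of 21 were 2-fold lower in the labelled knockout (Asgr2, Mgl2 and Klra17) and 0 higher. With heme, Asgr2 and Mgl2 were lower and Klra2 higher (81.0, 62.3, 92.0 and 183) of 17. The labelled knockout's heme difference minus that of wild type reached 2-fold for 2 of 21, where 1.17% of all genes were 2-fold higher. These were Klra2 (log2 1.37) and Klra17 (log2 1.05). For Klra17 this is a smaller decrease, log2 -0.69 in the labelled knockout against -1.74 in wild type. Only its wild-type vehicle array was at level.

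Signalling partners at 2-fold were few, as were such genes among all genes. In each direction of the comparisons of 2 arrays, between 0.452% and 1.20% of all genes at level passed 2-fold. Counts of 0 or 1 therefore do not set the lists below apart. Of 32 adaptor and Syk-Card9 pathway genes at level, 0 were 2-fold higher or lower with heme in either genotype, with list medians of -0.03 and 0.06. Fcer1g, the adaptor of Mincle, MCL and dectin-2, read 5469, 5094, 5342 and 5001, and Tyrobp 4376, 3469, 4211 and 3958. Syk read 524, 486, 608 and 515 and Card9 108, 89.7, 78.0 and 88.4. The paracaspase gene Malt1, a subunit of the Card9 complex, was the 1 member 2-fold lower in the labelled knockout. It read 585, 537, 262 and 220, with log2 differences of -1.16 in vehicle and -1.29 with heme. Phosphatases and inhibitors that act downstream of inhibitory receptors gave 0 of 18 at 2-fold in any comparison of 2 arrays, with Ptpn6, which encodes SHP-1, at 333, 356, 270 and 335. In the difference of heme responses 1 of the 18 passed, Dok1, at a log2 value of 1.11, where 1.17% of all genes were 2-fold higher. Regulators known to act on these genes included Cebpb (311, 367, 355 and 309), Spi1, which encodes PU.1 (747, 727, 601 and 650), and Hif1a (578, 712, 483 and 561). Of 24 such regulators at level, 1 was 2-fold lower with heme in each genotype, Epas1 (93.4, 39.8, 233 and 68.2), and it was also the 1 that was 2-fold higher in the labelled knockout in vehicle.

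Cytokines and mediators that lectin receptors can induce were 2-fold higher with heme for 5 of 20 genes at level in wild type and for 3 of 19 in the labelled knockout, with 0 lower in both. Il6 read 7.77, 124, 6.15 and 25.3, at level on the wild-type heme array alone, and Acod1 53.2, 334, 36.4 and 119. The list medians over all 27 were 0.07 and 0.00, with members on both sides: of those at level, 11 were above 0 and 9 below in wild type, and 10 and 9 in the labelled knockout. Il1b read 261, 514, 149 and 324. Ccl2, at 461, 234, 232 and 173, was among those below 0. Cxcl3 read 52.0, 240, 44.3 and 96.7, the order of Clec4e. With heme, 5 of 19 were 2-fold lower in the labelled knockout and 0 higher, Il6, Acod1 and Cxcl3 the most. In vehicle, Nos2 was over 2-fold higher (log2 2.00) and Egr2 lower (log2 -1.01) of 20. Nos2 read 24.4, 80.2, 97.8 and 67.3, and its wild-type vehicle array, below level, enters this value and its difference of heme responses. In each direction of the comparisons of 2 arrays, between 0.452% and 1.20% of all genes at level passed. The heme response was 2-fold lower in labelled knockout cells for 4 of 21, where 0.879% of 11155 genes at level passed. Nos2 (-2.25), Il6 (-1.96) and Cxcl2 (-1.20) led them, and the Il6 value includes arrays below level. Neutrophil markers matter here because neutrophils carry Clec4e and Clec4d. They were 2-fold higher with heme for 6 of 19 at level in wild type and for 0 of 20 in the labelled knockout. The medians over those at level were 0.41 and 0.16. Their summed signal was 18074, 22322, 17245 and 19026. The 6 were Cxcr2, Stfa2, Lcn2, Mmp9, Retnlg and Prtn3, with wild-type log2 heme differences of 1.60, 1.59, 1.57, 1.29, 1.22 and 1.20, beside 1.84 for Clec4e and 1.19 for Clec4d. In the labelled knockout their values were 0.20, 0.69, 0.87, 0.46, 0.76 and -0.06, beside 1.34 for Clec4e and 0.64 for Clec4d. The other neutrophil genes differed less with heme in wild type, as S100a8 did (4243, 5613, 3213 and 4381). Of 10 monocyte markers, 2 were 2-fold higher with heme in each genotype, Treml4 and Vcan, and of 19 macrophage markers 6 were 2-fold lower in wild type and 0 in labelled knockout cells. The part of these cells in the Clec4e and Clec4d differences was not tested.

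Genes with the most similar pattern were found by the root mean square distance between log2 signals over the 4 arrays, each gene centred on its own mean, among 636 genes at level that spanned 2-fold or more. Of the 9 receptors, 4 spanned that much. For Clec4e the nearest were the quinone reductase Nqo1 (18.7, 69.0, 14.8 and 41.7, at a distance of 0.06), Cxcl3 (0.21) and the cystine transporter Slc7a11 (277, 799, 222 and 381, 0.25). For Clec4d they were the transporter Abcc3 (45.2, 98.2, 73.0 and 107, 0.06), Mettl7a1 (0.07) and Htr2b (0.07). For Clec10a they were Acot10 (43.0, 43.7, 19.9 and 28.1, 0.05), H2-M2 (0.09) and Dhrs9 (0.09). For Clec2i they were Nol3 (40.7, 85.1, 27.8 and 96.8, 0.12) and the proteasome ATPase genes Psmc5 (0.14) and Psmc6 (0.15). A likeness over 4 arrays is a description of these arrays alone.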

How the data were processed

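The 4 arrays carried biotinylated cRNA made with the Ovation PicoSL kit, per the labels' protocols. The deposited values are linear intensity per probe set after RMA, per the submitters' processing notes. The series' design text describes other cells, so the sample labels were followed. No detection calls were used, so a low signal cannot be set against background. Values were taken to log2 with no added scaling, and differences between arrays were computed. Of 35556 probe sets, 21789 had a single gene symbol, and 21698 of these took their symbol from the RefSeq gene table (GRCm38.p6) by Entrez number. The brightest probe set stood for each of the 999 genes with more than 1, which left 19938 genes. The receptors and gene lists were chosen with earlier results of these data known. The rule names all 9 receptors in each comparison and up to 3 genes of each other list at 2-fold. Of the cell type lists, only genes beside a receptor result are given. Genes named besides these, for their role or place beside a receptor, were chosen after their values were seen. List members without a measured value were not analysed here. Other settings tried were rules of 1.5-fold and 3-fold, a level filter left out or set at the 75th percentile (106), a second quantile normalization, lowess centring, 32 added to each signal, and probe sets averaged per gene. The calls were run on simulated data with planted differences larger than 2-fold, in genes well above the level filter. That run checks the computation alone, not the spread between replicates or genes near the filter. Software was matplotlib 3.10.9, statsmodels 0.14.6, pandas 2.3.3 and numpy 2.4.6 under Python 3.11.15.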

Additional observations from a re-analysis of the deposited data

Results flagged for a closer look

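The genotype difference of Clec2i pointed in opposite directions in the 2 treatments. It was -0.39 (log2) in vehicle, 179 in wild type against 137 in the labelled knockout, and 0.47 with heme, 365 against 506. Each exceeded the robust SD over all genes in its comparison (0.27 and 0.25). The difference between these 2 values was not tested, since each group has 1 array.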

How the results depend on the processing

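Of 180 recomputed differences of single receptors (45 differences under quantile normalization again, lowess centring, 32 added to each signal and the mean of probe sets), all moved by less than the robust SD of their comparison and 1 crossed 2-fold, Clec2i with heme in wild type at 1.88-fold with 32 added. Each receptor had 1 probe set, so the mean of probe sets could not move its values and is no check of them. Of the 180, 2 changed sign, both at differences of 0.02 or less. None of these 4 settings moved the median of all genes at level by more than 0.038. The counts depended on the fold rule. Shares of all genes were taken at 2-fold alone, so the counts at 1.5-fold and 3-fold have no share beside them. At 1.5-fold, 2 receptors were lower with heme in wild type (Clec7a and Clec12a), 4 higher and 1 lower with heme in the labelled knockout, 2 higher in the labelled knockout in vehicle, 2 lower there with heme, and 1 had a larger heme response in the labelled knockout (Clec2i). At 3-fold, 1 was higher with heme in wild type (Clec4e), 1 in the labelled knockout (Clec2i), and 0 lower in the labelled knockout in vehicle. The counts of receptors at 2-fold were the same with no level filter and with the filter at 106. All 9 receptors were at level in each comparison, so leaving the filter out could not change these counts. The labels give no replicate numbers that pair arrays, and a fit with genotype as a block for heme, which 4 arrays would allow with 1 residual degree of freedom, was not run.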
